A study of Mus musculus with 2 samples.

Results

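The matrix metalloproteinases, the ADAMTS proteinases, the ADAMTS-like proteins and the tissue inhibitors of metalloproteinases were described in the ureter of newborn mice that lack Rbpj in the Tbx18 lineage. Members were the genes whose symbol on the array is Mmp, Adamts, Adamtsl or Timp followed by its family number. This rule used no measured value. It found 51 of the 30011 gene names on the array, of which 23 were Mmp, 19 Adamts, 5 Adamtsl and 4 Timp genes. After removal of dim probes 40 members were tested, among 21150 genes.

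Total RNA of postnatal day 4 (P4) ureters of the NMRI strain was compared on 2 two-colour arrays. The control genotype was Tbx18(+/+);Rbpj(fx/n.d.). The conditional knockout (Rbpj-cKO) was Tbx18(cre/+);Rbpj(fx/fx), so it also differs from the control in carrying the cre allele at Tbx18. Each array held an Rbpj-cKO and a control RNA, from RNAs labelled female on array 1 and male on array 2, with the dyes exchanged. Labelled sex, dye orientation and replicate therefore changed together and cannot be told apart. The sources used here do not say how many animals entered an RNA. The p-values rest only on the spread between the 2 arrays, that of the gene moderated in limma by that of all genes tested.

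Rbpj binds DNA and carries the signal of activated Notch receptors to their target genes. Tbx18-driven cre is known for its activity in the mesenchyme around the ureter, which forms its smooth muscle and fibroblasts. Matrix metalloproteinases are zinc enzymes that cut collagens, gelatin and other matrix and cell surface proteins. ADAMTS enzymes cut proteoglycans and trim procollagens, whereas ADAMTS-like proteins lack the protease domain and bind to fibrillin microfibrils. TIMPs bind the active site of these enzymes and block it.

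Unless a level is named, the values below are log2 ratios with the Rbpj-cKO RNA above and the control RNA below. A level is the normalized log2 intensity of 1 RNA, and levels of different genes were not compared because they come from different probes. Rbpj itself had ratios of -0.92 and -1.10 on arrays 1 and 2 (mean -1.01 ± 0.13 SD, n = 2, limma adjusted p = 0.0875). Where its probe lies relative to the floxed part was not determined. Tbx18 was at 0.16 and 0.0055. The Y-linked genes Ddx3y (4.23 and -0.54) and Eif2s3y (4.26 and -0.19) were far higher in the Rbpj-cKO RNA of array 1, although both its RNAs are labelled female. Their levels on array 1 were 11.31 and 11.97 in the Rbpj-cKO RNA against 7.08 and 7.70 in the control RNA. On array 1 the genotype therefore cannot be told apart from this difference in Y-linked RNA. All 8 urothelial and all 8 smooth muscle markers of the labelled tissue were kept, with mean levels per RNA of 15.96 to 16.31 and 15.36 to 15.75. Markers of other cells were kept as well, among them all 8 of the adipocyte, liver, endothelial, macrophage and neutrophil lists, with mean levels of 12.37 to 15.23 for adipocytes and 9.45 to 12.37 for liver. Every tested member is given on each array separately, and array 2 alone held 23 members higher and 17 lower. Of all 21150 genes tested, 11443 were higher and 9707 lower on array 2.

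No member passed the threshold of an adjusted p of 0.05 in limma, where 0.00473% of all genes (1 gene) did. The smallest member value was 0.0942, for Adamts16. At an unadjusted p under 0.05 in limma, 7 of the 40 tested members were higher and 4 lower. Of all 21150 genes, 1478 (6.99%) were higher and 1485 (7.02%) lower. No member was at least 1.5-fold higher on both arrays, against 85 of the 21150 genes (0.402%). Adamts16, 1 of the 40, was at least 1.5-fold lower on both, against 168 of the 21150 genes (0.794%). None was 1.5-fold apart in opposite directions, a pattern that 0.104% of all genes showed.

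By sign alone, 18 of the 40 tested members (45%) were higher on both arrays and 11 (27.5%) lower on both, against 31.8% and 29.8% of all genes. The median of the member means was 0.08, and that of all genes was -0.0002. Sizes were small: 13 members had a mean under 0.1 in size, and 6 had one over 0.3. The families differed in makeup. All 5 Adamtsl genes were higher on both arrays, as were 7 of 17 Adamts, 4 of 14 Mmp and 2 of 4 Timp genes. Signs were counted at any size, as for Timp2 on array 1 (0.0030, with an SD between its spots of 0.0259). Lower on both arrays were 5 Adamts, 4 Mmp and 2 Timp genes, and no difference between families was tested.

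**Figure D1:**
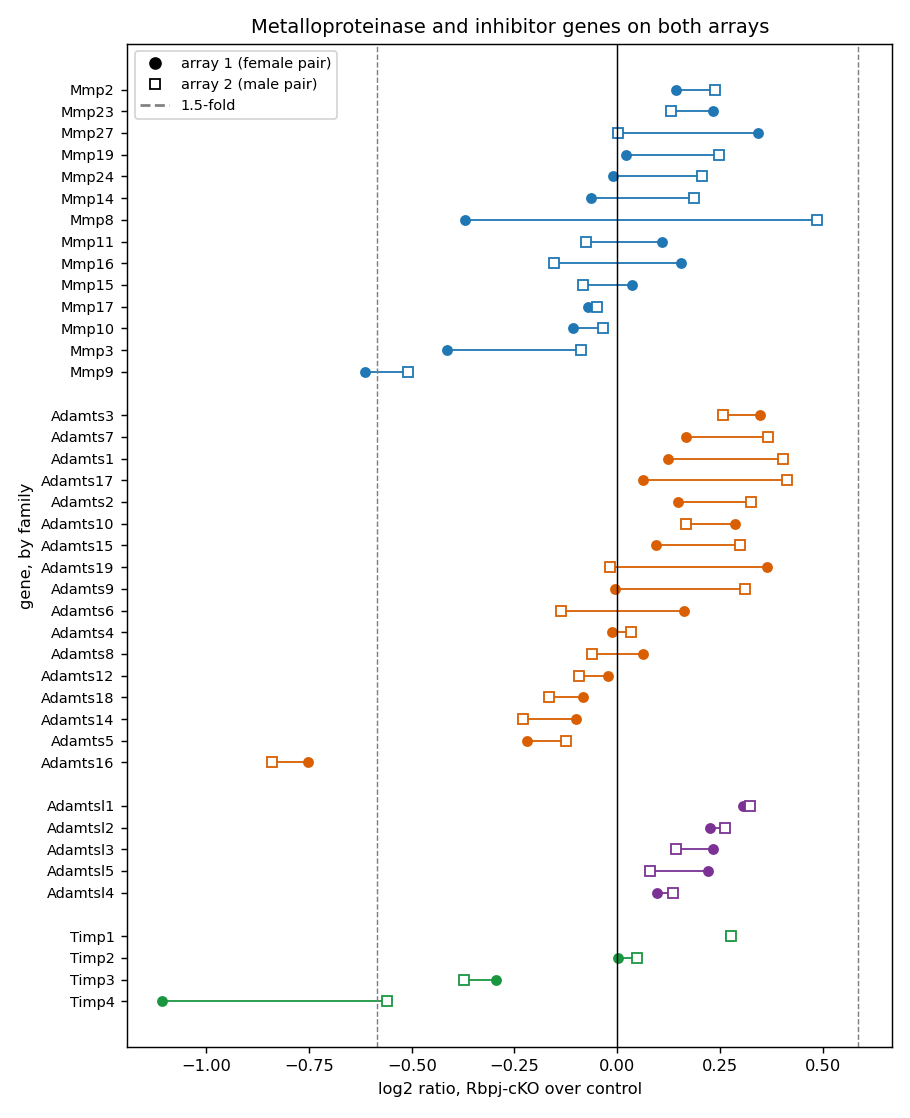
Log2 ratios of Rbpj-cKO over control for the 40 tested members, grouped by family on the y axis, with a filled circle for array 1 and an open square for array 2, and lines at a 1.5-fold change. Adamts16 is the member with both points beyond the line, and both Timp1 points coincide. Timp2, Adamts4, Adamts6, Adamts8, Mmp11 and Mmp16, near 0, changed the sign of their mean under median centring.

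The probes of the 3 members with the lowest means are shown by the first 30 of their 60 bases, since each ratio rests on what such a probe binds. Coordinates are those of the whole probe in the array file (mm9). Adamts16 is shown with both its probes, the brighter first, at chr13:70867148-70867207 and chr13:70906800-70906859 (minus strand). The Timp4 probe lies at chr6:115196120-115196179 (minus strand) and that of Mmp9 at chr2:164780620-164780679 (plus strand). Their place in an exon or UTR was not determined.
Adamts16, brighter probe: gatgggggctatgatatagggctttgcata
Adamts16, dimmer probe: catctctacctcctatatttctgtgcgcaa
Timp4: ccagcaaatggaggctgtggggcatgtgac
Mmp9: ccaaccttttccagctactttagtcaatca

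Among the gelatinases, Mmp9 (gelatinase B, made largely by leukocytes) was lower in the Rbpj-cKO RNAs. Its control levels were 9.29 and 9.20 on arrays 1 and 2, and its Rbpj-cKO levels 8.67 and 8.69. The genotypes did not overlap. The share of all genes with such a separation was not counted, here or for the members below. With 2 RNAs of each genotype it describes the levels and is no result about these genes. The ratios were -0.61 and -0.51, and the mean of -0.56 ± 0.07 (SD, n = 2) equals 0.678 times the control (limma adjusted p = 0.136). That mean stood at percentile 2.2 of all genes tested. Mmp2 (gelatinase A), a product of mesenchymal cells, had control levels of 14.76 and 14.91 and Rbpj-cKO levels of 14.90 and 15.14. Its ratios were 0.14 and 0.24, with an adjusted p of 0.380 in limma.

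Neutrophils store Mmp9 as well as the collagenase Mmp8, and macrophages make Mmp9. The 8 neutrophil markers had median ratios of -0.18 and 0.30, and their mean level was 9.82 in control and 9.63 in Rbpj-cKO on array 1, and 9.47 and 9.76 on array 2. The 8 macrophage markers had medians of -0.12 and 0.04. Mmp8 had levels of 7.37 and 7.0035 in control and Rbpj-cKO on array 1, and of 6.68 and 7.16 on array 2, so its ratios of -0.37 and 0.49 were of opposite sign. It had the widest gap between the arrays of any tested member, 0.86, and in the control RNA of array 2 50% of its spots were well above background. The part of these cells in either result was not tested. In whole tissue, fewer cells of a type and less RNA per cell cannot be told apart.

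Mmp3 and Mmp10, stromelysins that activate other proMmps, were lower on both arrays, at -0.41 and -0.09 for Mmp3 and at -0.11 and -0.03 for Mmp10. Mmp11, stromelysin-3, was at 0.11 and -0.08. The membrane-type enzymes act at the cell surface, and Mmp14 is the activator of proMmp2. Mmp14 had ratios of -0.06 and 0.19, Mmp15 of 0.04 and -0.08, and Mmp16 of 0.16 and -0.15. Mmp17, anchored by glycosylphosphatidylinositol, was at -0.07 and -0.05. Mmp24 was at -0.0095 and 0.21, with 25% of its spots well above background in the control RNA of array 2. Of these 5 membrane-type genes, 4 had opposite signs on the arrays, as did 8140 of all 21150 genes and 11 of the 40 tested members.

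Mmp23, Mmp19 and Mmp27, which belong to none of these groups, were higher on both arrays. Mmp23 was at 0.23 and 0.13, Mmp19 at 0.02 and 0.25, and Mmp27 at 0.34 and 0.0025. Mmp19 on array 1 (0.0207) and Mmp27 on array 2 did not exceed the SD between their spots (0.021 and 0.0634). Their signs there are not resolved. No Mmp gene with a positive mean reached an unadjusted p under 0.05 in limma.

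The 11 members left out as dim were 9 Mmp and 2 Adamts genes. They included the collagenases Mmp13, Mmp1a and Mmp1b, matrilysin (Mmp7), macrophage elastase (Mmp12), enamelysin (Mmp20), Mmp21, Mmp25 and Mmp28. The Adamts genes were Adamts13, which cuts von Willebrand factor, and Adamts20. Of their 15 probes, 13 had no spot well above background in any RNA, so only a bound exists for them. Of the 40 kept members, 38 were above that share of spots in all 4 RNAs, Mmp8 and Mmp24 being the exceptions.

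Adamts16, an orphan member of its family studied in kidney and gonad development and in blood pressure genetics, was the member lower by at least 1.5-fold on both arrays. Control levels were 9.05 and 9.33 and Rbpj-cKO levels 8.29 and 8.49. Both Rbpj-cKO values lay below both control values. The ratios were -0.75 and -0.84, with a mean of -0.80 ± 0.06 (SD, n = 2), or 0.576 times the control (limma adjusted p = 0.0942, or 0.0465 with the trended robust variance). The dimmer probe printed above gave -0.39 and -0.27, the same direction at a smaller size. With both probes averaged the mean was -0.56, and no member was then 1.5-fold lower on both arrays.

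The procollagen-trimming enzymes remove the amino-terminal propeptide of fibrillar collagens. Adamts2 was at 0.15 and 0.32 and Adamts3 at 0.35 and 0.26, and both reached an unadjusted p under 0.05 (limma adjusted p = 0.344 and 0.253). The levels of Adamts3 were low, at 7.10 and 7.16 in control and 7.45 and 7.41 in Rbpj-cKO. Adamts14 went the other way, at -0.10 and -0.23. The dimmer probes of Adamts2 and Adamts14 gave the same sign as the brighter ones.

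The proteoglycan-cleaving enzymes cut versican and aggrecan. Adamts1 had control levels of 13.03 and 13.04 and Rbpj-cKO levels of 13.15 and 13.44, also without overlap. Its ratios were 0.12 and 0.40. Adamts15 was at 0.09 and 0.30, Adamts9 at -0.0044 and 0.31, Adamts4 at -0.01 and 0.03, and Adamts8 at 0.06 and -0.06. Adamts5, the main aggrecanase of mouse cartilage, was lower on both arrays, at -0.22 and -0.12, but its dimmer probe was at 0.0004 and -0.0043. None of the 6 tested genes of this group reached an unadjusted p under 0.05 in limma.

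Of the enzymes that cut cartilage oligomeric matrix protein, Adamts7 was at 0.17 and 0.37 and Adamts12 at -0.02 and -0.09. The fibrillin-associated Adamts10 was at 0.29 and 0.17, whereas its dimmer probe gave 0.0001 and -0.03. Adamts6, its closest relative, was at 0.16 and -0.14. Adamts17 was at 0.06 and 0.41, Adamts18 at -0.08 and -0.17, and Adamts19 at 0.37 and -0.02.

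By their brightest probes, the ADAMTS-like genes were the family with a single direction. Adamtsl1 had control levels of 12.19 and 12.45 and Rbpj-cKO levels of 12.49 and 12.77, also without overlap. Its ratios of 0.31 and 0.32 differed little between the arrays, with a mean of 0.32 ± 0.01 (SD, n = 2; 1.24 times the control, limma adjusted p = 0.230). Its 2 dimmer probes had means of 0.32 and 0.26. Adamtsl2, which binds latent TGF-beta binding protein and fibrillin, was at 0.22 and 0.26. Adamtsl3 was at 0.23 and 0.14, Adamtsl4, needed for the lens zonule, at 0.10 and 0.14, and Adamtsl5 at 0.22 and 0.08. The dimmer probe of Adamtsl5 gave 0.04 and -0.0096, so it did not show a rise on both arrays. All 5 means kept their sign in the 10 alternative fits, some of which reuse the same ratios, and none passed the adjusted threshold.

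Among the TIMPs, Timp4 and Timp3 were lower on both arrays, Timp1 was higher on both and Timp2 stayed near 0. Timp4 had control levels of 9.04 and 8.20 and Rbpj-cKO levels of 7.94 and 7.64. All Rbpj-cKO values lay below all control values, but the control RNAs differed from each other by more than those of Timp3. The ratios were -1.11 and -0.56, with a mean of -0.83 ± 0.39 (SD, n = 2), or 0.561 times the control (limma adjusted p = 0.182). This was the lowest mean of the tested members, at percentile 1.0 of all genes. The value of array 2 lay just inside the 1.5-fold line, which lies at a size of 0.585 on the log2 scale.

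Timp4 is the TIMP known for expression in adipose tissue, heart and brain. The 8 adipocyte markers were all lower in the Rbpj-cKO RNAs on both arrays, with medians of -2.74 and -1.09. Their mean level was 15.2 in control and 12.5 in Rbpj-cKO on array 1, and 13.7 and 12.4 on array 2. The marker list and Timp4 both had the larger ratio on array 1. Its part in the Timp4 value was not tested.

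Timp3, the inhibitor that stays bound to the matrix and also blocks ADAMTS enzymes, had control levels of 14.79 and 14.84 and Rbpj-cKO levels of 14.50 and 14.46. The genotypes did not overlap, and the RNAs of a genotype lay close together. Its ratios were -0.29 and -0.37, with a mean of -0.33 ± 0.06 (SD, n = 2; 0.793 times the control, limma adjusted p = 0.226). Timp1 is a secreted inhibitor induced in many forms of tissue repair. It had control levels of 11.86 and 11.94 and Rbpj-cKO levels of 12.13 and 12.21, also without overlap. It was the most even of the 4, at 0.27 and 0.28 (mean 0.27 ± 0.0018 SD, n = 2, limma adjusted p = 0.267). Timp2, which takes part in the activation of proMmp2 by Mmp14, was at 0.0030 and 0.05, and its mean of 0.03 turned to -0.0041 under median centring.

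**Figure D2:**
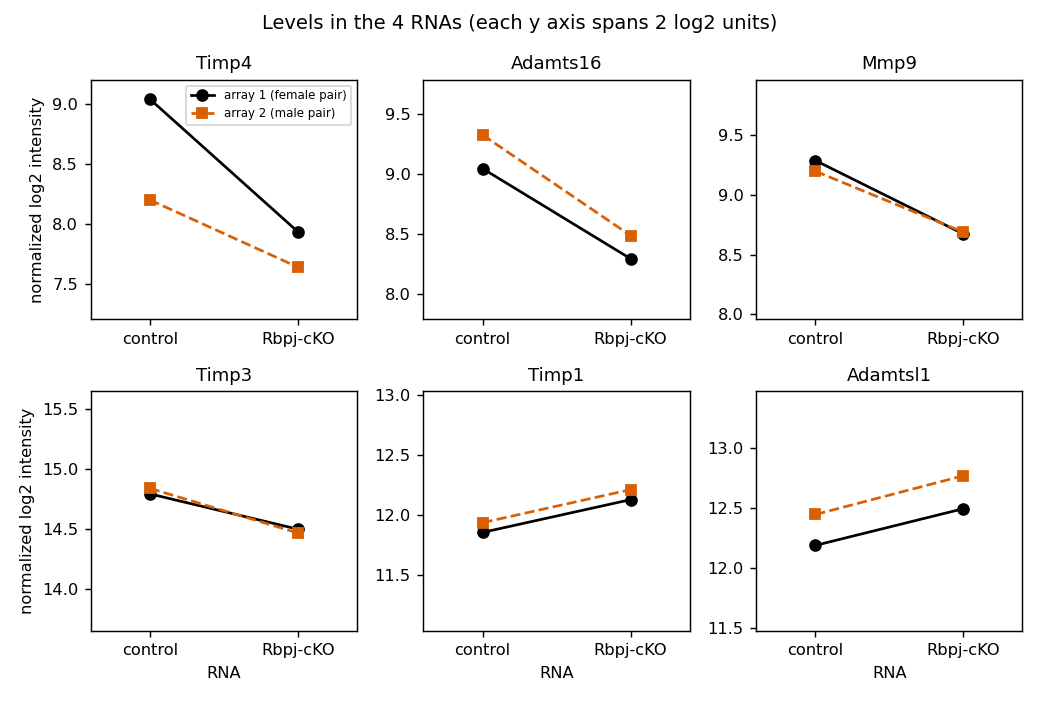
Normalized log2 intensity (y axis, 2 log2 units in each panel) of Timp4, Adamts16, Mmp9, Timp3, Timp1 and Adamtsl1 in the control and Rbpj-cKO RNA, with a line for each array. The control RNA of Timp4 is at 9.04 on array 1 and 8.20 on array 2, whereas both lines of Mmp9 and of Timp3 nearly coincide.

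Several members lie beside each other in the genome. On chromosome 9, 10 Mmp genes have probes within chr9:7282762-7697700 (mm9), and 4 of them were bright enough to be tested. Mmp3 and Mmp10 were lower on both arrays, Mmp27 was higher on both and Mmp8 had opposite signs. On array 2 the values of Mmp10 (-0.03) and Mmp27 (0.0025) were smaller than the SD between their spots (0.0821 and 0.0634), so their signs there are not resolved. Adamts1 and Adamts5, side by side on chromosome 16, had means of 0.26 and -0.17. Adamts15 and Adamts8, side by side on chromosome 9, had means of 0.20 and 0.0010.

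Promoters of 36 members were found in the RefSeq table (GRCm38.p6), and the 250 bases before each start were searched on both strands for the RBPJ core TGGGAA and the AP-1 site TGANTCA. The core stood in 8 of 39 member promoters (20.5%) and in 21.6% of all 32851 promoters. Among the tested members it stood in 5 genes, of which Adamtsl2, Adamtsl3, Adamtsl5 and Timp1 were higher on both arrays and Adamts14 lower. The AP-1 site also stood in 8 member promoters (20.5%), against 6.7% of all promoters. Among the tested members it stood in 2 of 26 promoters (7.7%), near the share of all promoters. All 8 promoters with the AP-1 site belong to the chromosome 9 group, whose 10 genes all have a promoter in the table. None of the 26 other members with a promoter there had a match. Members without one, among them Adamts16, Mmp9 and Adamtsl1, were not searched for either site. Of the 8 genes with the AP-1 site only Mmp3 and Mmp10 were tested. A match is a description of the letters and no evidence of binding.

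Windows around the matches are shown for 4 tested members with the RBPJ core and for 4 genes of the chromosome 9 group, since these are the shared letters named above. The match is in capitals, and TTCCCA is the core read on the other strand. They lie at chr2:27079286-27079345 (plus), chr7:82335495-82335554 (plus), chrX:20869981-20870040 (plus), chr10:61273607-61273666 (minus), chr9:7445749-7445809, chr9:7502252-7502312, chr9:7272452-7272512 and chr9:7464041-7464101 (all plus), in the order printed.
Adamtsl2: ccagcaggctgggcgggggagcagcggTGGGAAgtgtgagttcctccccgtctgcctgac
Adamtsl3: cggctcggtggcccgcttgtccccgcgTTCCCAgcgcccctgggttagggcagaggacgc
Timp1: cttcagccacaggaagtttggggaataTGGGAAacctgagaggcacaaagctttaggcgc
Adamts14: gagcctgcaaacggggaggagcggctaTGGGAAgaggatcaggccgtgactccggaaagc
Mmp3: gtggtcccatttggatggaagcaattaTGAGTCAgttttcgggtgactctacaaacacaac
Mmp10: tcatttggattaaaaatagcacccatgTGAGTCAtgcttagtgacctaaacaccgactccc
Mmp13: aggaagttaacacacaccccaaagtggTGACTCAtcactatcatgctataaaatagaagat
Mmp1a: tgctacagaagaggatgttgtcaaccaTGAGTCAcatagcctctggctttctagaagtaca

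The AP-1 match began 46 bases before the start in Mmp3, 63 in Mmp10, 35 in Mmp13 and 73 in Mmp1a. The RBPJ core began 66 bases before the start in Adamtsl2, 158 in Timp1, 172 in Adamtsl3 and 220 in Adamts14.

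Probes of the same member could differ by as much as the ratios reported here. Of the members, 14 had more than 1 kept probe, which makes 15 pairs. The median size of their difference in the mean ratio, taken without sign, was 0.08. The widest pair was that of Adamts16 (0.47). Adamts10, Adamts8 and Adamts9 had probes with opposite signs. For Adamts9 the brighter probe had a mean of 0.15 and the dimmer -0.06.

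**Figure D3:**
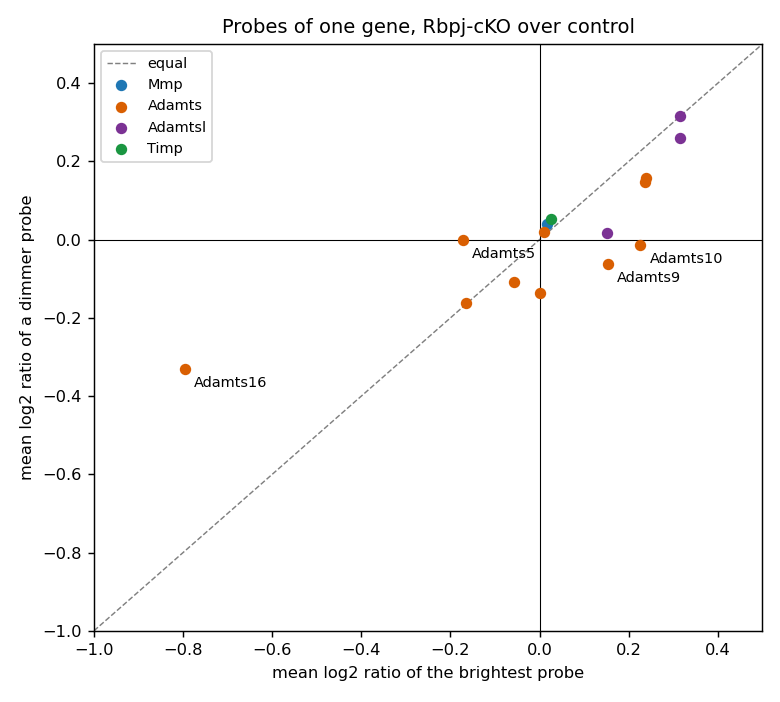
Mean log2 ratio of the brightest probe (x axis) against that of each dimmer probe of the same gene (y axis) for the 14 members with more than 1 kept probe, with a dashed line where they are equal. Adamts16 lies farthest from the line, and Adamts10, Adamts8 and Adamts9 have signs that differ between the probes.

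The proteins on which these enzymes act were examined as a separate list. Of 26 ADAMTS substrates and matrix partners, 24 were tested. Among these, 15 (62.5%) were higher on both arrays and 2 lower on both, against 31.8% and 29.8% of all genes. None passed the adjusted threshold in limma. At an unadjusted p under 0.05 in limma, 5 were higher and 0 lower, against 6.99% and 7.02% of all genes. The 24 genes had a median mean of 0.11. Cartilage oligomeric matrix protein (Comp), a substrate of Adamts7, was at 0.42 and 0.33. Its levels were low, at 6.77 and 6.89 in control and 7.19 and 7.22 in Rbpj-cKO. Versican (Vcan), a substrate of Adamts1, was at 0.23 and 0.48. Latent TGF-beta binding protein Ltbp1 was at 0.33 and 0.28, fibronectin (Fn1) at 0.24 and 0.27, and type III collagen (Col3a1) at 0.29 and 0.19. Ltbp3 was at -0.41 and 0.0117.

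This list shares collagen genes with the fibroblast markers, whose medians were 0.26 and 0.12. The smooth muscle markers had medians of -0.17 and -0.35, and the pericyte markers -0.43 and -0.39. Of the 8 endothelial markers, 6 were lower on both arrays and none higher on both, against 29.8% and 31.8% of all genes. The medians of these 8 markers were -0.31 and -0.10. The medians were 0.65 and 0.12 for the mesothelial markers and 0.45 and 0.08 for the urothelial ones. Both the fibroblast and the smooth muscle lists had all 8 markers above background. Their part in the values of the mesenchymal members was not tested.

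Of 41 other genes of matrix proteolysis (plasminogen system, meprins and other astacins, Adam proteases, cathepsins, serine proteases and regulators of Mmps), 39 were tested. On both arrays 13 (33.3%) were higher and 8 (20.5%) lower, against 31.8% and 29.8% of all genes. Opposite signs were seen in 18 (8140 of 21150 over all genes). None passed the adjusted threshold in limma. At an unadjusted p under 0.05 in limma, 6 were higher and 2 lower, against 6.99% and 7.02% of all genes. The 39 genes had a median mean of 0.02. The meprins Mep1a (0.82 and 0.59) and Mep1b (0.62 and 0.56), known from kidney and gut epithelium, were higher. Control levels on arrays 1 and 2 were low, at 7.26 and 7.30 for Mep1a and 6.89 and 6.91 for Mep1b. The 6 kidney markers kept had medians of 1.06 and 0.42. Plasminogen (Plg, 0.36 and -2.42) and antiplasmin (Serpinf2, 0.40 and -1.86), both liver products, had opposite signs, as did the 8 liver markers with medians of 0.70 and -2.68. These parts were not tested.

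The procollagen enhancer Pcolce2 was at 0.54 and 0.64 (adjusted p = 0.133 in limma). Fibroblast activation protein (Fap), a surface protease of fibroblasts, was at -0.47 and -0.41 (adjusted p = 0.169 in limma).

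**Figure D4:**
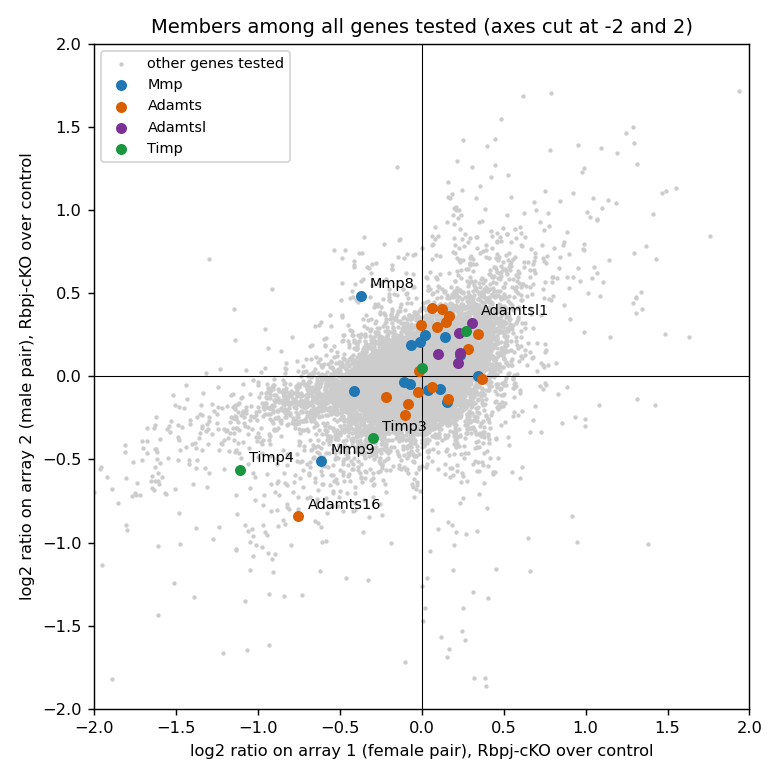
Log2 ratio of Rbpj-cKO over control on array 1 (x axis) against array 2 (y axis) for the genes tested, in grey, and the 40 tested members, coloured by family. Adamts16, Timp4, Mmp9 and Timp3 lie at the lower left, Mmp8 (-0.37 and 0.49) at the upper left, and most other members inside the grey cloud. Genes beyond the axes are not drawn.

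The leading members kept their sign under every alternative processing with a fit. The other dim-probe filters and the other variance model reuse the ratios of the brightest probes, so those fits could not change a sign. Averaging probes could change nothing either for a member with 1 kept probe. Adamts16 ranged from -0.94 to -0.56, Timp4 from -1.08 to -0.80, Mmp9 from -0.62 to -0.56 and Timp3 from -0.36 to -0.28 over the 10 alternatives. Timp1 ranged from 0.25 to 0.31 and Adamtsl1 from 0.28 to 0.35. Adamts3 ranged from 0.30 to 0.61.

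**Figure D5:**
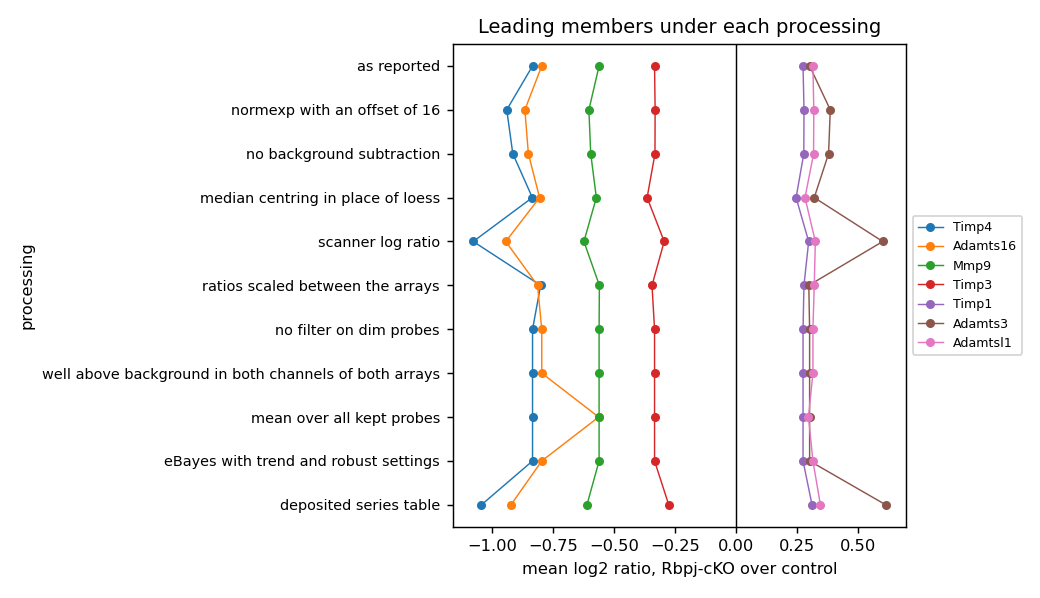
Mean log2 ratio (x axis) of Timp4, Adamts16, Mmp9, Timp3, Timp1, Adamts3 and Adamtsl1 under each processing (y axis, the reported one on top). No line crosses 0, and Adamts16 comes closest to it when its probes are averaged.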

How the data were processed

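Members and gene lists were chosen with earlier results of these data known. The array files hold the spot intensity of each channel, written by Agilent Feature Extraction 10.7.3.1 per the file headers and deposited by the authors without normalization between channels. They also hold the authors' deposited log10 ratio of red over green. The deposited series table holds a signed score without stated scale (no value between -1 and 1, median 1), read as a signed fold and used as an alternative.

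The channel labels set the direction of each ratio. Intensities were background-corrected (normexp, offset 50) and normalized by loess within arrays in limma 3.58.1 (R 4.3.3). Outlier-flagged spots (3.34% and 3.12%) were dropped. Probes passed the filter when, for either genotype, over 50% of spots exceeded the background by the scanner's own test on array 1 and array 2 alike, and the brightest kept probe stood for its gene. No gene spot was saturated, and both arrays lay on 1 slide. Probe accessions were matched to RefSeq for 28328 of 39429 probes, and members kept the array's symbol. Levels per RNA came from loess followed by Aquantile. Log2 ratios were tested against 0 with lmFit and eBayes (two-sided) and Benjamini-Hochberg adjustment over 21150 genes. The residual df was 1, and the prior df, estimated from all genes, was 3.35. With 2 arrays, their number limits the precision. The script was checked on simulated data.

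The rule for values on both arrays took members at least 1.5-fold apart, the 10 largest means, all TIMPs and a fixed set of well-known members; the other tested members, which the rule allowed to be named, were given with both values too. For each of the other lists the 6 largest means were named. Alternatives were another background correction, median centring, scaling, the authors' values, other filters and probe rules, another variance model and leaving out each array.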

Additional observations from a re-analysis of the deposited data

How the results depend on the processing

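Over the 10 alternative fits, 30 of 40 members kept the sign of their mean, 8 had the opposite sign at least once, and Adamts18 and Mmp24 were at 0 in the deposited series table. In all, 12 of 398 means had the opposite sign. That total includes the fits with other dim-probe filters and another variance model, which reuse the same ratios and could not reverse a sign. With median centring the means were -0.018 for Adamts4, -0.0089 for Adamts6, -0.029 for Adamts8, -0.016 for Mmp11, -0.015 for Mmp16 and -0.0041 for Timp2. With ratios scaled between the arrays they were -0.011 for Adamts6, -0.0089 for Adamts8 and -0.024 for Mmp16. Averaging all kept probes gave -0.067 for Adamts8, and the deposited series table gave 0.0021 for Mmp15 and -0.10 for Mmp8. The count of members at least 1.5-fold lower on both arrays was 2 with an offset of 16, without background subtraction, with the scanner log ratio, with scaled ratios and with the series table (Timp4 joined Adamts16), and 0 with averaged probes. The scanner log ratio put 1 member, Mmp8 (-0.68 and 1.27), at least 1.5-fold apart in opposite directions. The trended robust eBayes fit put 1 member, Adamts16, past the adjusted threshold, and 95 of all genes instead of 1. The cause of these changes was not tested.

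Leaving out an array gave 1 to 3 members at least 1.5-fold lower (Mmp9 and Timp4 joined on array 1 alone), 16 to 17 lower, 23 to 24 higher and 0 at least 1.5-fold higher, with no test. On array 1 alone 10131 of all 21150 genes were higher and 11019 lower, and on array 2 alone 11443 and 9707. The median member mean was 0.03 to 0.15 over the 10 alternatives. No paired analysis was possible because there is 1 group of 2 arrays, each of which already pairs an Rbpj-cKO with a control RNA. Dim probes limit the Mmp family most: 9 of its 23 genes did not pass the filter.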
